A study of Mus musculus with 12 samples.

Results

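Injured mouse kidneys that overexpressed a variant of the hormone FGF23 were compared with injured mouse kidneys of a mCherry group, across all genes that passed a filter on low counts. The comparison used 8 of the 12 kidney libraries of the series: the 4 libraries labelled AKI_A_FGF23_R176QR179Q, numbered 1, 2, 3 and 5 and called the variant group here, and the 4 labelled AKI_A_mcherry, numbered 1 to 4. The remaining 4 libraries, labelled NC, served only to show where the injured groups stood. Per the series' design text, the variant protein was overexpressed in mice for 3 weeks before acute kidney injury (AKI) was produced by rhabdomyolysis, and RNA was then taken from renal tissue. The group name of the mCherry libraries is that of a red fluorescent protein, and both injured groups carry the letters AKI in their labels. NC is not expanded in the labels. The labels also do not give the vector, the species of the FGF23 sequence, the strain, sex or age of the mice, or the day of collection. Whether each library is a different mouse is not stated either; p-values therefore reflect only how far these samples scatter, which may be technical. No uninjured group with the variant, and no uninjured mCherry group, was analysed here.

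FGF23 is secreted by bone cells and acts on kidney tubules through FGF receptors bound to the co-receptor klotho. It lowers the synthesis of active vitamin D, raises its breakdown and lowers phosphate uptake from the urine. The substitutions R176Q and R179Q lie at the site where the hormone is normally cut and inactivated, and are known from inherited phosphate wasting. In rhabdomyolysis, broken muscle releases myoglobin, whose heme damages the tubules. Injured tubules switch off transport genes and switch on injury genes, so a difference between the injured groups can place the variant group nearer to NC or beyond both other groups. For many genes, levels in NC are given beside those of the injured groups for this reason. Where they are not given, a difference between the injured groups does not show which of these holds.

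Of 32047 genes in the files, 18824 passed the filter, and 4347 of them (23.1%) passed the test between the injured groups, at an adjusted p under 0.05 in edgeR's quasi-likelihood test. The variant group was higher for 2199 (11.7%) and lower for 2148 (11.4%). These shares are the background for every count of called list members below. The difference was at least 2-fold for 854 genes that were higher (4.54%) and 576 that were lower (3.06%), and at least 8-fold for 96 and 64. When only library totals set the scale, the calls were 4060 higher and 1035 lower, and the median log2 fold change of all genes was 0.21 in place of 0.0084. The total number of calls was 2410 without variant library 1, 2853 without variant library 2 and 2718 without variant library 5. In 519 genes (2.76%) all 4 variant libraries lay above all 8 other libraries, and in 369 (1.96%) they lay below all 8. Of these, 376 were called higher and 266 lower than the mCherry group. Scaled by library totals, 1952 genes lay above and 81 below all 8 others. Library totals were 55324078 to 70638283 counts. The share of counts from genes with the prefix mt- was 10.9% to 13.1% in the variant group, 13.8% to 17.1% in the mCherry group and 15.3% to 16.9% in NC. Values below are CPM (library-size-scaled counts, with TMM factors), and changes are log2 fold changes of the variant over the mCherry group with their standard error.

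Fgf23, the overexpressed gene, was read at 6.12, 5.79, 7.28 and 4.49 CPM in variant libraries 1, 2, 3 and 5. It had 0 counts in all mCherry and NC libraries. The gene was thus read in every library labelled with it and in no other. Reads from a sequence with other codons might be missed in part or in full, which was not tested.

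Genes of vitamin D turnover, which FGF23 controls in the proximal tubule, differed strongly between the injured groups. Cyp24a1, the 24-hydroxylase that breaks down active vitamin D, was at 730.4, 427, 387 and 774 CPM in variant libraries 1, 2, 3 and 5. It was at 36.5, 77.8, 32.0 and 92.4 CPM in mCherry libraries 1 to 4 and at 38.1, 97.8, 64.4 and 58.3 CPM in NC libraries 1 to 4. Every variant library stood above all 8 others and the mCherry and NC libraries overlapped. The change was log2 3.28 ± 0.39 (SE, edgeR adjusted p = 7.96e-04). Cyp27b1, the 1-alpha-hydroxylase that makes active vitamin D, was at 0.494, 1.06, 1.30 and 0.351 CPM in the variant libraries, at 14.7, 1.42, 13.3 and 2.75 in the mCherry libraries and at 4.43, 7.20, 6.39 and 3.91 in NC. All variant libraries were the lowest of the 12, but mCherry libraries 2 and 4 stood close to them and the mCherry group spread widely (log2 -3.33 ± 0.75, edgeR adjusted p = 0.0125).

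Gc, which encodes the vitamin D binding protein that carries the vitamin in blood and into tubule cells, was at 143, 153, 163 and 98.4 CPM in the variant libraries. It was at 19.5, 31.3, 23.6 and 23.9 CPM in the mCherry libraries and at 9.07, 14.4, 12.7 and 12.9 in NC. The 3 groups did not overlap, and the variant group was farther from NC than the mCherry group was (log2 2.51 ± 0.19, edgeR adjusted p = 7.96e-05). Vdr, the vitamin D receptor, was at 229.8, 172, 115 and 185 CPM in the variant libraries, at 64.5, 66.2, 61.2 and 66.3 in the mCherry libraries and at 209, 230.3, 262 and 287 in NC. Its variant libraries stood above the mCherry group, and library 1 reached the NC range (log2 1.44 ± 0.18, edgeR adjusted p = 8.59e-04). Of 8 listed genes of vitamin D turnover, Cyp24a1, Gc and Vdr were called higher and Cyp27b1 lower, where 11.7% and 11.4% of all tested genes were. Their list median was 0.07 against 0.0084 over all tested genes. Beyond both other groups stood Cyp24a1 and Gc above and Cyp27b1 below.

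**Figure D1:**
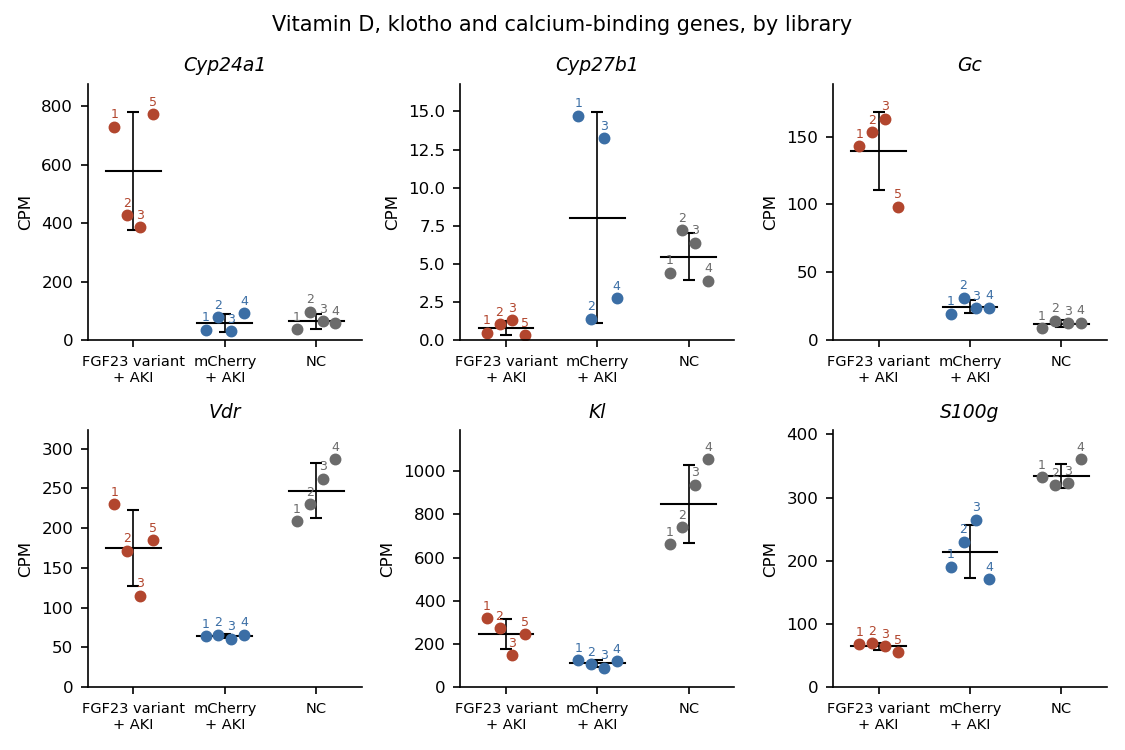
CPM of 6 genes in each library (points, numbered by library), with the group mean (line) and SD (bars), for the variant and mCherry groups after acute kidney injury and for NC. Cyp24a1, Gc, Cyp27b1 and S100g have all 4 variant libraries outside both other groups, while Vdr and Kl have variant libraries between the mCherry group and NC or at the edge of NC.

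Kl, which encodes klotho, was at 319, 272, 149 and 246 CPM in the variant libraries, at 124, 108, 89.9 and 119 in the mCherry libraries and at 661, 742, 938 and 1057 in NC. The groups did not overlap, and the variant group stood between the other groups but well below NC (log2 1.16 ± 0.21, edgeR adjusted p = 0.00463). In whole-kidney RNA, fewer cells of a type and less RNA per cell cannot be told apart, which applies to this and every tubule gene below. Fgfr1, an FGF receptor that binds FGF23 with klotho, was at 56.9 to 65.7 CPM in the variant and 68.8 to 79.3 in the mCherry group and did not pass the test (log2 -0.27 ± 0.09, edgeR adjusted p = 0.0585), but passed with DESeq2 (adjusted p = 0.0317) and in the edgeR fit of all 12 libraries (0.0344). Of 8 genes for FGF receptors, klotho and receptor adaptors, Kl and Frs2, a docking protein of FGF receptors (log2 0.37 ± 0.12), were called higher and 0 lower. The call for Frs2 (edgeR adjusted p = 0.0409) was lost without variant library 1, 2 or 5 or mCherry library 2, 3 or 4, and without the filter on low counts, at 0.0669 to 0.116.

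Signalling by FGF receptors through the kinase ERK is followed by feedback genes, and 16 of these were listed. Spry1, a feedback inhibitor of receptor tyrosine kinases, was at 33.9 to 39.5 CPM in the variant group, 23.6 to 31.0 in the mCherry group and 14.5 to 24.2 in NC. It stood above all 8 other libraries by a small margin (log2 0.44 ± 0.11, edgeR adjusted p = 0.0189), and its adjusted p was 0.0582 without variant library 2 and 0.0532 without variant library 5. Etv5, an ETS transcription factor, was higher (log2 0.73 ± 0.13). The other 3 calls were lower: Spred3, an inhibitor of ERK signalling (log2 -1.02 ± 0.22), Dusp5, a nuclear ERK phosphatase (log2 -0.70 ± 0.21), and Phlda1 (log2 -0.79 ± 0.25). The call for Dusp5 was lost without variant library 1 or 5 or mCherry library 2 or 3, with library totals alone and without the filter, with an edgeR adjusted p of 0.0594 to 0.0993. The call for Phlda1 was lost without any single library but variant library 3, with library totals alone and without the filter, with 0.0525 to 0.117. Of the 16 genes 2 were thus called higher and 3 lower, where 11.7% and 11.4% of all tested genes were. The list's median was -0.06, against 0.0084 over all tested genes.

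Slc34a1, the main phosphate transporter of the proximal tubule, was at 815, 322, 299.5 and 509.6 CPM in the variant libraries, at 368, 335, 353 and 325 in the mCherry libraries and at 3307 to 5534 in NC. Variant library 1 was the highest injured library, the groups overlapped, and the test was not passed (log2 0.50 ± 0.27, edgeR adjusted p = 0.218). Slc34a3, a second sodium-phosphate cotransporter, was at 4.48 to 12.9 against 1.42 to 5.52 CPM (edgeR adjusted p = 0.126). The widespread phosphate transporter gene Slc20a1 was lower (log2 -0.70 ± 0.14), and Pdzk1, which encodes a scaffold for brush border transporters, was higher (log2 1.25 ± 0.24). In this list of 9, 1 gene was called higher and 3 lower, where 11.7% and 11.4% of all tested genes were. Without variant library 1, 2 or 5 or mCherry library 1, 1 was called lower.

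Calcium handling genes of the distal tubule split. Calb1, the cytosolic calcium buffer calbindin-D28k, was higher (log2 1.46 ± 0.27), as was Slc8a1, the sodium-calcium exchanger (log2 1.88 ± 0.21). Casr, the calcium-sensing receptor, was higher (log2 1.96 ± 0.28). S100g, the smaller calcium buffer calbindin-D9k, ran the other way, at 68.2, 69.2, 65.0 and 55.9 CPM in the variant libraries, 191, 230.2, 265 and 171 in the mCherry libraries and 333, 319.6, 322 and 361 in NC. Its variant libraries were the 4 lowest of the 12, and the mCherry group stood between them and NC (log2 -1.73 ± 0.14, edgeR adjusted p = 1.51e-04). Trpv5, the apical calcium channel, was at 23.9 to 45.8 against 12.8 to 30.9 CPM and did not pass (log2 0.69 ± 0.26, edgeR adjusted p = 0.0835), but passed with DESeq2 (adjusted p = 0.0343), with library totals alone (0.0398) and without mCherry library 1 (0.0449). Of 8 calcium genes, 4 were called higher and 1 lower, while 0 lay above all 8 other libraries and 1 below. Calb1 was at 167 to 303 CPM in the variant group and 312 to 560 in NC. Casr was at 15.9 to 31.6 and 33.5 to 44.5 CPM, so both stayed below NC. Slc8a1, at 80.7 to 154 and 74.2 to 229 CPM, overlapped NC.

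Genes for the machinery that folds and checks proteins in the endoplasmic reticulum (ER) were higher in the variant group than in both other groups, nearly throughout. When unfolded proteins build up there, the sensors ATF6, IRE1 and PERK raise chaperone genes, in part through a promoter sequence called the ER stress response element. Of 25 listed genes, 21 were called higher and 0 lower, and 21 had all 4 variant libraries above all 8 others, with a median log2 change of 0.97. These sets of 21 were not the same. Syvn1 and Ero1l lay above all 8 others but were not called, and Herpud1 was called but did not lie above all 8. Over all tested genes the shares were 11.7% called higher and 2.76% above all 8 others. Syvn1, Ero1l, Xbp1 and Sec61b, named because they were the only 4 not called, had log2 changes of 0.28, 0.22, 0.23 and -0.06. Syvn1 passed without mCherry library 3 (edgeR adjusted p = 0.0493), Ero1l with a minimum mean of 5 CPM (0.0483), and both and Xbp1 with library totals alone (0.0102 to 0.0182). The list summed to 10984 to 12448 CPM in the variant group, 4830 to 6703 in the mCherry group and 4186 to 4582 in NC.

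Hspa5, the main ER chaperone (BiP), was at 2876, 2927, 2699 and 2373 CPM in variant libraries 1, 2, 3 and 5. It was at 972, 781, 1508 and 749 CPM in the mCherry libraries and at 353, 314, 318 and 334 in NC. All variant libraries were above all mCherry libraries, of which library 3 was the highest, and those were above NC (log2 1.44 ± 0.21, edgeR adjusted p = 0.00208). Derl3, a subunit of the channel that returns misfolded proteins for degradation, was at 84.7, 58.2, 44.4 and 60.7 CPM in the variant libraries, 5.77, 14.2, 17.3 and 2.94 in the mCherry libraries and 0.809, 0.439, 0.866 and 0.547 in NC. It showed the largest change of the list (log2 2.63 ± 0.48, edgeR adjusted p = 0.00493), and again the 3 groups did not overlap. Dnajc3, a co-chaperone of BiP, was at 348, 289, 246 and 331 CPM in the variant libraries, 132, 117, 139 and 113 in the mCherry libraries and 187, 177, 166 and 177 in NC. Its mCherry group lay below NC, so the order of the groups was not that of Hspa5 (log2 1.28 ± 0.13). Hsp90b1, the ER form of the chaperone HSP90, was higher (log2 1.43 ± 0.17), as was Pdia4, a disulfide isomerase (log2 1.65 ± 0.14). Herpud1, of the degradation complex, was higher too (log2 1.10 ± 0.12), but its 241 to 311 CPM overlapped the 297 to 326 of NC. Bhlha15 (MIST1), a transcription factor of secretory cells, was at 5.41 to 6.50, 0.431 to 1.48 and 0.0817 to 0.368 CPM in the variant, mCherry and NC groups (log2 2.56 ± 0.32).

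**Figure D2:**
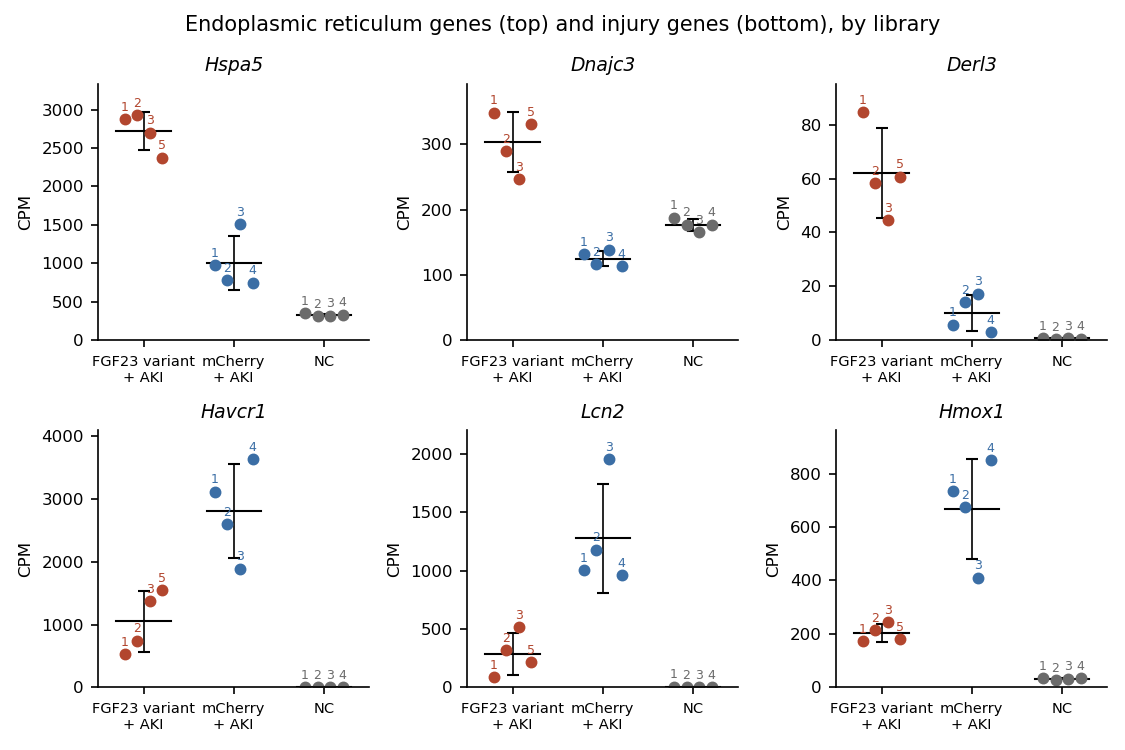
CPM in each library (points, numbered by library) with the group mean (line) and SD (bars) for ER genes (top) and injury genes (bottom), in the variant and mCherry groups after acute kidney injury and in NC. The ER genes are highest in the variant group, and the injury genes are highest in the mCherry group and lowest in NC.

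Promoters of ER genes are shown because this list moved together and because the element is a known feature of such genes. RefSeq windows (mouse build GRCm38.p6, not the build of the files) were searched for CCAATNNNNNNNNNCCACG on both strands in the 250 bases before each gene's start. The motif was found in 10 of 23 listed genes with a window (43.5%), in 21 of 12644 tested genes (0.166%) and in 35 of all 27025 genes with a window (0.13%). The 250 bases of 4 of them follow, 5′ to 3′ on the gene's strand, with the motif in capitals.
Hspa5 (chr2:34771840-34772089, plus strand): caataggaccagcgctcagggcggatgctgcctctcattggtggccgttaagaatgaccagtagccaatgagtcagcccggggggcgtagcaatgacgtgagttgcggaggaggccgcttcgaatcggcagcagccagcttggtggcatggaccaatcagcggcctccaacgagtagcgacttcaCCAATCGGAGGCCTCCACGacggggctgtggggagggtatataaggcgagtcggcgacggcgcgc
Hsp90b1 (chr10:86705445-86705694, minus strand): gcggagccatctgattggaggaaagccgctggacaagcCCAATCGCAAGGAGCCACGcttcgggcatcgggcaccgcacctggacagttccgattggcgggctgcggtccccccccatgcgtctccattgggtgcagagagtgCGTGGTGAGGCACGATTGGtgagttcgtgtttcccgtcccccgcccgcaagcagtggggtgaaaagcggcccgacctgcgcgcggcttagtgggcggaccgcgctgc
Dnajc3 (chr14:118937682-118937931, plus strand): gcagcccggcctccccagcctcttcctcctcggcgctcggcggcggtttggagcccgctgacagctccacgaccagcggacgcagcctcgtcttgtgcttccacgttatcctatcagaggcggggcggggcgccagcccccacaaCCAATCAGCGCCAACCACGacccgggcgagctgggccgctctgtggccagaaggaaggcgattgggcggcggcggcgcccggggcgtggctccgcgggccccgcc
Derl3 (chr10:75893148-75893397, plus strand): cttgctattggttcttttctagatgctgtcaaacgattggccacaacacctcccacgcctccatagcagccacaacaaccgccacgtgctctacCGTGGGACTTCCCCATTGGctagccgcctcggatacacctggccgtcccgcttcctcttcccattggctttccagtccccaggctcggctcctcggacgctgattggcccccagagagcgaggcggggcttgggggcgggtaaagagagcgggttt
The match begins 65 bases before the start of Hspa5, 105 before Dnajc3 and 156 before Derl3. In Hsp90b1 there are 2 matches, at 212 and 107 bases. Of the 21 tested genes with the motif, 11 were called higher and 0 lower, with a median log2 change of 0.775. Among the 10 of these on the ER list 9 were called higher, and among the 11 outside it 2, where 11.7% of all tested genes were. Of the listed genes with a window but no match, all except Ero1l, Xbp1 and Sec61b were called higher too. Calls within the list were thus not confined to genes with a match. A match is a string of letters in a window, not a measured binding site.

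The ATF4 response, which raises amino acid synthesis and uptake genes under ER or amino acid stress, was less uniform. Of 23 genes 8 were called higher and 2 lower (1 lower without variant library 1 or 5 or mCherry library 3), and 8 had all variant libraries above all others. Aldh1l2, a mitochondrial enzyme of folate metabolism, was at 122, 54.2, 28.1 and 86.9 CPM in the variant libraries and at 7.15, 4.06, 4.42 and 6.99 in the mCherry libraries. Its NC libraries were at 1.03, 3.05, 1.58 and 2.61 CPM. Every variant library stood above every other one, with variant library 1 the highest (log2 3.68 ± 0.42, edgeR adjusted p = 6.70e-04). Slc7a11, the cystine transporter, was higher (log2 1.153 ± 0.14), as was Chac1, which breaks down glutathione (log2 1.29 ± 0.20). Gdf15, a secreted stress cytokine, was lower, at 49.8 to 59.3 against 95.1 to 134 CPM, with NC at 6.11 to 9.11 (log2 -0.999 ± 0.12).

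Glucuronidation genes, whose enzymes attach glucuronic acid to bilirubin, hormones and drugs, held the largest rise among the named genes other than Fgf23 itself. Ugt1a2 was at 68.9, 56.2, 66.8 and 33.1 CPM in the variant libraries, 0.123, 0, 0.127 and 0.268 in the mCherry libraries and 0.423, 0.562, 0.539 and 0.322 in NC. Ugt1a1, the bilirubin-conjugating enzyme, was at 40.0, 37.2, 41.0 and 20.6 CPM in the variant libraries, 0.806, 0, 0.522 and 0.550 in the mCherry libraries and 0.202, 0.562, 0.310 and 0.934 in NC. Neither gene's variant libraries overlapped with any other library (log2 8.66 ± 0.47 and log2 6.17 ± 0.58), and since genes of the Ugt1a locus share exons, how reads were divided among them is uncertain. Ugt1a6a, of the same locus, was higher (log2 1.18 ± 0.20) as was Ugt2b34 (log2 2.78 ± 0.54). Ugt2b37 and Ugt2b38, members of a family of similar genes, were lower (log2 -1.89 ± 0.36 and log2 -1.60 ± 0.29), and all variant libraries lay below all 8 others. In the list of 15 tested genes 7 were called higher and 2 lower, with 5 and 2 outside both other groups.

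Genes that differ between male and female mouse kidneys differed too, and more male-biased genes were lower and more female-biased genes higher. These sex differences depend on androgens, and in part on growth hormone and prolactin signalling. Slco1a1, an organic anion transporter of male proximal tubules, was at 0.253, 0.0772, 0.0422 and 0.884 CPM in the variant libraries, 44.6, 58.1, 12.4 and 43.7 in the mCherry libraries and 236, 384, 511 and 282 in NC. The groups did not overlap, and the change rests on few counts in the variant group (log2 -6.98 ± 0.78, edgeR adjusted p = 6.18e-04). Kap, the kidney androgen-regulated protein, was at 1518, 1028, 1998 and 2259 CPM in the variant libraries, 9255, 15785, 5525 and 8876 in the mCherry libraries and 23723, 19105, 21678 and 19085 in NC. The mCherry group was below NC and the variant group below both (log2 -2.53 ± 0.34, edgeR adjusted p = 0.00128). Acsm3, an acyl-CoA synthetase, and Cyp4a12a, a fatty acid hydroxylase, were lower (log2 -3.47 ± 0.42 and log2 -3.15 ± 0.66). Against that direction, Slc7a13, the cystine and aspartate transporter of segment S3, was higher (log2 2.27 ± 0.34) as was Akr1c21, a hydroxysteroid dehydrogenase (log2 1.93 ± 0.26). Of 15 male-biased genes 6 were called lower and 2 higher, 5 had all variant libraries below all others, and the median was -0.52.

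Of 7 female-biased genes 5 were called higher and 0 lower, and 2 had all variant libraries above all 8 others. The list median was 3.88 for the variant over the mCherry group. It was -0.02 for the variant group over NC and -3.89 for the mCherry group over NC, comparisons that share their libraries with the first. Prlr, the prolactin receptor, was at 76.0, 41.3, 39.6 and 49.7 CPM in the variant libraries, 2.05, 1.72, 3.07 and 1.40 in the mCherry libraries and 4.38, 15.8, 6.47 and 11.5 in NC. Slc7a12, an amino acid transporter of female kidneys, was at 54.2, 23.8, 21.3 and 22.8 CPM in the variant libraries, 0.123, 0, 0.0950 and 0.178 in the mCherry libraries and 1.78, 2.46, 1.72 and 3.65 in NC. For both, all variant libraries exceeded all 8 others, and variant library 1 was the highest (log2 4.65 ± 0.30 and log2 8.17 ± 0.54). Hao2, a peroxisomal hydroxyacid oxidase, was at 167 to 366 against 13.99 to 18.2 CPM, with NC at 194 to 294 (log2 3.88 ± 0.25), so the variant and NC libraries overlapped. Genes of prolactin and growth hormone signalling had 9 called higher and 0 lower of 14, among them Igfbp3 (1.79) and Igfbp5 (0.92), which bind insulin-like growth factors. In this list 1 gene lay above all 8 others. Its median was -0.06 for the variant group over NC and -0.65 for the mCherry group over NC. Igfbp3 was at 136 to 208 CPM in the variant group and 135 to 190 in NC, and Igfbp5 at 218 to 305 and 306 to 444. Xist and the Y-linked genes had 0 calls among 5 by edgeR (0 at an unadjusted p under 0.05, 0 with DESeq2). They summed to 138 to 156, 109 to 151 and 152 to 174 CPM in the variant, mCherry and NC groups. These sums add genes that go opposite ways with sex, and groups of mixed sex could also give 0 calls. The sex of each library was therefore not tested.

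**Figure D3:**
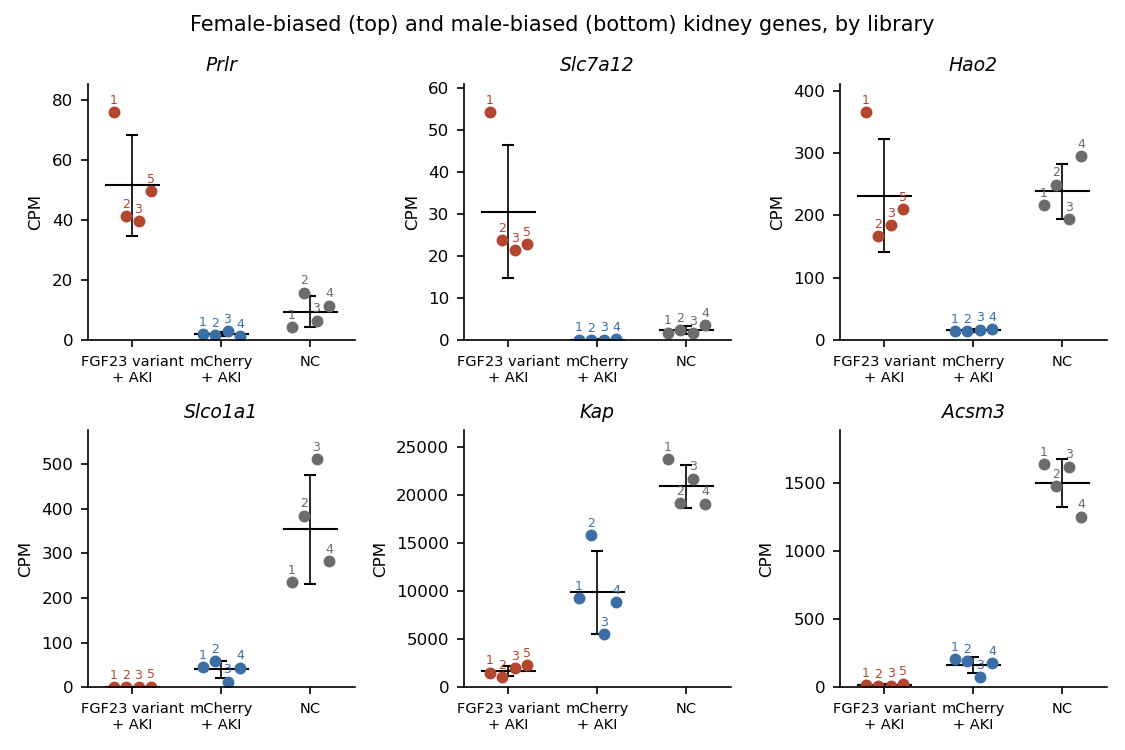
CPM in each library (points, numbered by library) with the group mean (line) and SD (bars) for female-biased genes (top) and male-biased genes (bottom), in the variant and mCherry groups after acute kidney injury and in NC. Prlr and Slc7a12 are highest in all 4 variant libraries, and Slco1a1, Kap and Acsm3 are lowest there.

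Several other genes went beyond both groups. Selenop, the selenium carrier protein, was at 802, 749, 827 and 727 CPM in the variant libraries, 4426, 3441, 1272 and 3213 in the mCherry libraries and 3010.1, 3168, 3350.2 and 3054 in NC. The variant libraries were closely spaced and lay below all others, and mCherry library 3 was far below the rest of its group (log2 -1.99 ± 0.30, edgeR adjusted p = 0.00237). Hsd17b2, which inactivates sex steroids, was at 1.69 to 3.42, 9.83 to 26.5 and 13.6 to 25.0 CPM in the variant, mCherry and NC groups (log2 -2.80 ± 0.35). Pzp, a protease inhibitor, was lower (log2 -4.58 ± 0.43) as was Ctxn3, a membrane protein gene (log2 -5.54 ± 0.54), both with all variant libraries below all 8 others. Apoc3, an apolipoprotein, was at 20.2 to 48.5 against 2.87 to 6.66 CPM, with NC at 3.61 to 6.51 (log2 2.84 ± 0.34).

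Transcripts encoded by the mitochondrial genome, which give subunits of the respiratory chain, were lower. Of 13 genes 11 were called lower and 0 higher, and all 11 had every variant library below all 8 others, with a median of -0.67. Over all tested genes 11.4% were called lower and 1.96% lay below all 8 others. mt-Atp6, an ATP synthase subunit, was at 6513, 7297, 5997 and 5732 CPM in the variant libraries, 10825, 15688, 10474 and 9315 in the mCherry libraries and 12873, 10995, 11943 and 13502 in NC. mt-Nd1, of complex I, and mt-Cytb, of complex III, were lower (log2 -0.68 ± 0.16 and log2 -0.65 ± 0.14). mt-Nd4l and mt-Nd5, named because they were the only ones not called, had changes of -0.11 and -0.30. Without variant library 5, 7 were called lower. Scaled by library totals alone, 9 were called lower and 8 lay below all others, with a median of -0.46. Nuclear copies of mitochondrial sequence make the reads of single members uncertain.

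**Figure D4:**
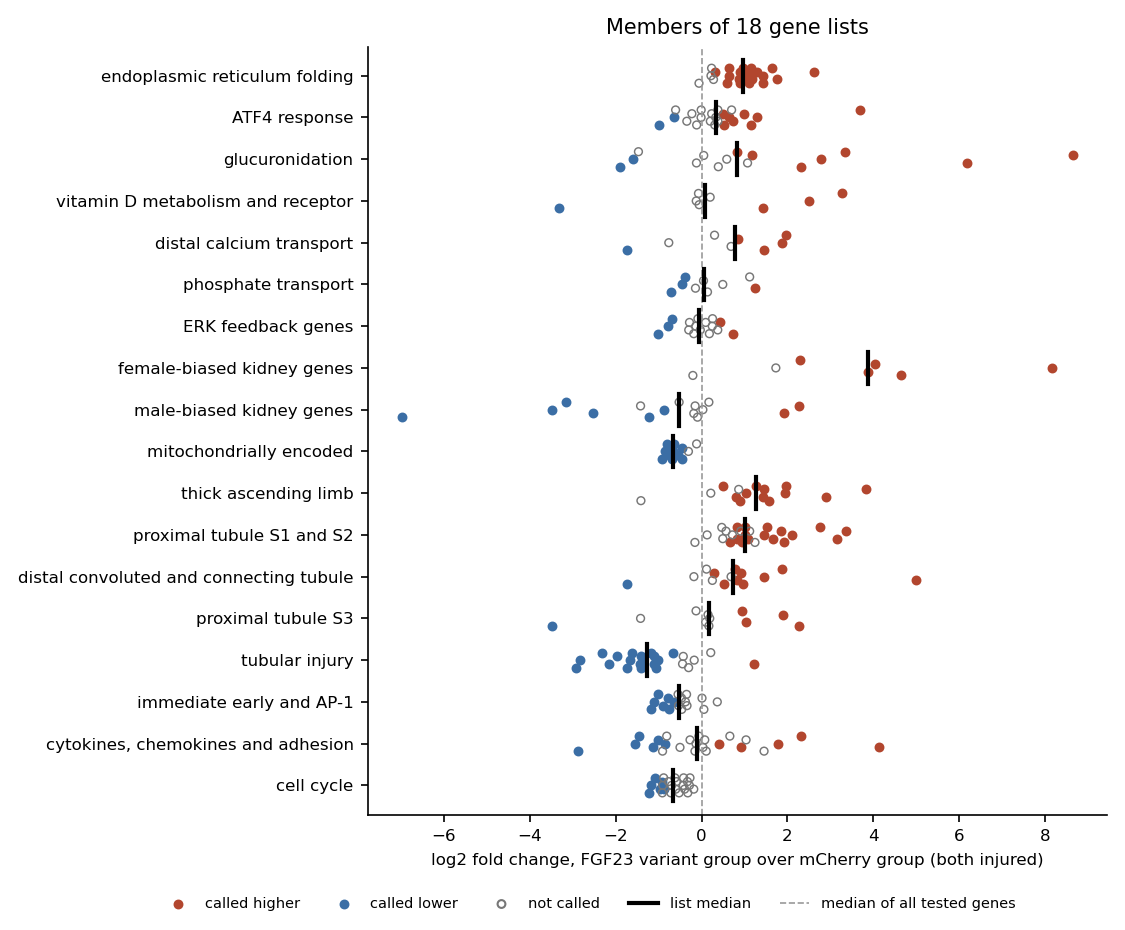
Log2 fold change of the variant over the mCherry group for the tested members of 18 gene lists (points, filled where called at an adjusted p under 0.05, open where not), with each list's median (bar) and the median of all tested genes (dashed line). ER folding, thick ascending limb and proximal S1 and S2 genes lie mostly to the right, and tubular injury, cell cycle and mitochondrially encoded genes to the left.

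Injury genes showed another pattern, with the variant group between the mCherry group and NC. Of 24 tubular injury genes 18 were called lower and 1 higher, with a median of -1.27. The same list had a median of 2.25 for the variant group over NC and of 3.49 for the mCherry group over NC, comparisons that share their libraries with the first. It summed to 8946 to 30094 CPM in the variant group, 42353 to 47193 in the mCherry group and 1715 to 2122 in NC, and variant library 1 was the lowest of the injured libraries. Most of the sum in each injured library was the single gene Spp1, at 5598 to 21272 CPM in the variant and 26212 to 30385 in the mCherry group.

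Havcr1, the kidney injury molecule KIM-1, was at 531, 741, 1376 and 1546 CPM in the variant libraries, 3119, 2599, 1891 and 3639 in the mCherry libraries and 1.84 to 4.76 in NC. Lcn2, the secreted injury protein NGAL, was at 85.9, 319, 513 and 216 CPM in the variant libraries, 1006, 1181, 1958 and 959.9 in the mCherry libraries and 1.58 to 4.82 in NC. In both genes every variant library was below every mCherry library and far above NC (log2 -1.42 ± 0.33 and log2 -2.17 ± 0.46, edgeR adjusted p = 0.0146 and 0.00988). Hmox1, which breaks down heme, was at 172, 215, 243 and 179.1 CPM in the variant libraries, 735, 675, 409.6 and 851 in the mCherry libraries and 33.6, 27.5, 32.5 and 33.6 in NC. Its variant libraries were close to each other and below all mCherry libraries (log2 -1.72 ± 0.21, edgeR adjusted p = 8.68e-04). Krt20, a keratin of injured tubules, was lower (log2 -1.67 ± 0.35) but missed the threshold in the edgeR fit of all 12 libraries (adjusted p = 0.0559). Also lower was Plin2, which coats lipid droplets (log2 -2.91 ± 0.34). Anxa1 and Anxa3, membrane-binding annexins, were lower (log2 -1.98 ± 0.14 and log2 -1.11 ± 0.13).

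Spp1, the matrix protein osteopontin, was at 5598, 15984, 21272 and 12596 CPM in the variant libraries and 26925, 30385, 28564 and 26212 in the mCherry libraries. Its difference (log2 -1.01 ± 0.32, edgeR adjusted p = 0.0464) was not past the threshold when variant library 2 or 5 or any 1 mCherry library was left out, with library totals alone or without the filter (0.0680 to 0.113). The only listed injury gene called higher was Cp, the copper-binding ferroxidase ceruloplasmin, at 154 to 259, 73.3 to 112 and 26.2 to 33.8 CPM in the variant, mCherry and NC groups (log2 1.22 ± 0.20).

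Across the variant libraries, the summed ER and injury levels ran in opposite order at their ends. Library 1 had the highest ER sum (12448 CPM) and the lowest injury sum (8946 CPM), and library 3 had the lowest ER sum (10984 CPM) and the highest injury sum (30094 CPM). Libraries 2 and 5 lay between, at 11500 and 11235 CPM for the ER and 21958 and 18971 CPM for the injury list. Hsp90b1, Dnajc3 and Derl3 were also highest in library 1 and lowest in library 3, while Hspa5 was highest in library 2 and lowest in library 5, and Havcr1 was highest in library 5. Spp1 alone made up most of the injury sum, at 5598, 15984, 21272 and 12596 CPM in variant libraries 1, 2, 3 and 5. These are values of 4 libraries, and no relation across them was tested.

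Immediate early genes, which are transcribed within minutes of a stimulus, had 7 called lower and 0 higher of 17. Egr1, a zinc finger transcription factor, was at 16.9, 28.5, 49.7 and 30.1 CPM in the variant libraries and 57.1, 69.1, 73.9 and 71.9 in the mCherry libraries (log2 -1.12 ± 0.26, edgeR adjusted p = 0.0149), a call lost in the fit of all 12 libraries (0.0823). Ier2, Klf6 and Klf4, further factors of this class, were lower (log2 -1.17 ± 0.19, log2 -0.79 ± 0.16 and log2 -0.76 ± 0.16). Cytokine, chemokine and adhesion genes moved both ways, with 5 called higher and 6 lower of 24. Without variant library 1, 2 or 5 or mCherry library 2, 3 were called lower, and without variant library 2 or 3 or mCherry library 2 or 4, 3 were called higher. Ccl7, a chemokine for monocytes, was lower (log2 -2.88 ± 0.67), with 0.228 to 0.528 against 0.839 to 8.44 CPM. Il34, a growth factor for macrophages, and Ccn2, a matrix-associated growth factor, were lower (log2 -1.01 ± 0.20 and log2 -0.84 ± 0.13). Higher were Cxcl10 (log2 0.91 ± 0.17) and Ccl5 (log2 1.79 ± 0.35), chemokines for T cells, both above all 8 other libraries, and the mucosal chemokine Ccl28 (log2 4.14 ± 0.35). Ccl28 was at 18.4 to 57.6 CPM in the variant group and 1.37 to 2.37 in the mCherry group. Its NC libraries, at 11.9 to 35.3 CPM, overlapped the variant group.

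Several epithelial and secreted-peptide genes were named for the size of their falls. Krt5, named as a urothelium marker, is given with them, and Krt14 is on the urothelium list as well. The rest belong to no list made for such genes. Sprr2f, of the cornified envelope, was at 0.190, 1.22, 1.97 and 0.407 CPM in the variant libraries, 32.1, 72.0, 62.0 and 25.8 in the mCherry libraries and 0 in NC. The basal keratins Krt14 and Krt5 were lower (log2 -5.24 ± 0.49 and log2 -2.60 ± 0.36), as was Sprr2g, of the same family as Sprr2f (log2 -3.97 ± 0.47). Genes of this family are similar, and counting may split their reads. The secreted peptide precursors Vgf and Grp were at 2.46 to 6.14 and 0 to 0.394 CPM in the variant group against 71.2 to 146 and 2.28 to 10.5 in the mCherry group. The protease gene Prss22 was lower (log2 -3.78 ± 0.43). In NC, Krt14 was at 0 to 1.21, Krt5 at 0.245 to 12.7, Vgf at 0 to 0.147, Grp at 0 and Prss22 at 0 to 0.202 CPM.

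Genes of several tubule segments were higher in the variant than in the mCherry group, with levels mostly at or below those of NC. Collecting duct genes did not share this, with 3 called higher and 2 lower of 16 and a median of 0.095. In the thick ascending limb, which reabsorbs salt without water, 12 of 15 genes were called higher and 0 lower, with a median of 1.27. Slc12a1, the furosemide-sensitive cotransporter NKCC2, was at 909, 825, 573 and 493 CPM in the variant libraries, 91.5, 87.7, 114 and 85.1 in the mCherry libraries and 1725, 1154, 1146 and 1201 in NC (log2 2.89 ± 0.21, edgeR adjusted p = 6.51e-05). Egf, the epidermal growth factor precursor made here, was at 572, 208, 129 and 177 CPM in the variant libraries, 22.03, 11.4, 22.8 and 20.1 in the mCherry libraries and 1845, 1786, 1737 and 1892 in NC (log2 3.83 ± 0.47). For both genes the 3 groups did not overlap, and the variant group lay on the NC side of the mCherry group. Umod, the urinary protein uromodulin, was at 4274 to 6319.5 against 2895 to 3305 CPM, a smaller rise (log2 0.79 ± 0.16), with NC at 4214 to 6541. Tmem72 and the prostaglandin receptor gene Ptger3 were higher (log2 1.27 ± 0.11 and log2 1.46 ± 0.14).

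Genes of proximal segments S1 and S2, where most solutes are reabsorbed, had 16 called higher and 0 lower of 25, with a median of 1.02. G6pc, the last enzyme of glucose synthesis, was at 119.6, 51.3, 37.4 and 60.5 CPM in the variant libraries, 6.64, 3.76, 8.28 and 7.34 in the mCherry libraries and 332, 608, 396 and 429 in NC (log2 3.37 ± 0.37). Aqp1, the water channel, was higher (log2 1.85 ± 0.16). Slc13a1, the sulfate transporter, was at 529, 474, 624 and 778 CPM in the variant libraries, 192, 136, 119.9 and 183 in the mCherry libraries and 313, 375, 354 and 336 in NC. It was the only one of the 25 whose variant libraries all exceeded NC as well as the mCherry group (log2 1.93 ± 0.20, edgeR adjusted p = 4.31e-04). In segment S3 4 of 11 were called higher and 1 lower.

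**Figure D5:**
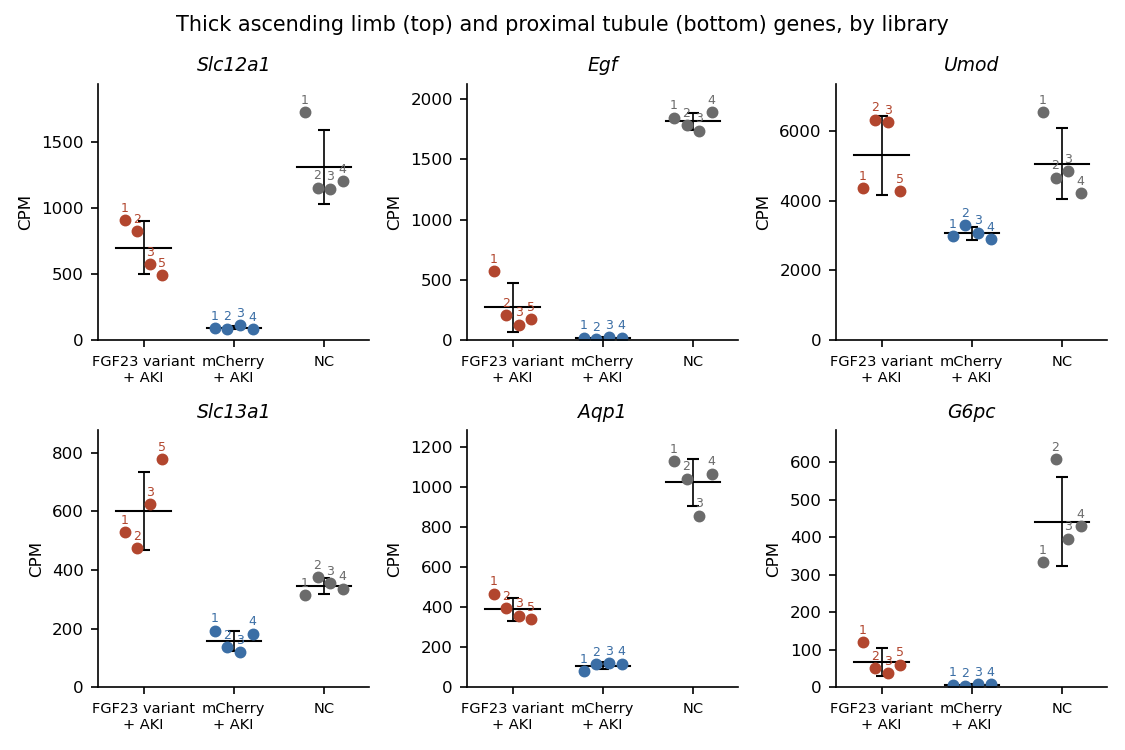
CPM in each library (points, numbered by library) with the group mean (line) and SD (bars) for thick ascending limb genes (top) and proximal tubule genes (bottom), in the variant and mCherry groups after acute kidney injury and in NC. The mCherry group is the lowest in each panel, and Slc13a1 is highest in the variant group.

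The distal convoluted and connecting tubule, which fine-tunes salt and calcium, had 9 called higher and 1 lower of 14. Pvalb, a calcium buffer of this segment that skeletal muscle also makes, was at 11.8, 3.77, 1.90 and 3.17 CPM in the variant libraries, 0.123, 0.220, 0 and 0.297 in the mCherry libraries and 17.3, 12.2, 14.4 and 17.2 in NC (log2 5.00 ± 0.83). Of 11 distal sodium transport genes 8 were called higher and 0 lower, including the kinase Wnk1 (log2 0.84 ± 0.16), its regulator Klhl3 (log2 1.00 ± 0.18) and the potassium channel Kcnj10 (log2 0.78 ± 0.12). Atp1b1, the beta subunit of the sodium pump, was higher (log2 0.68 ± 0.12). In the renin-angiotensin list 4 of 10 were called higher and 0 lower, among them Agt, the precursor (log2 1.72 ± 0.31), and Agtr1a, the receptor (log2 1.20 ± 0.20). Further large rises were in A4gnt, a glycosyltransferase (log2 6.001 ± 0.78), Nccrp1 (log2 4.50 ± 0.47) and the potassium channel gene Kcnt1 (log2 4.20 ± 0.55). The mCherry libraries held A4gnt at 0 to 0.238 CPM and NC at 16.8 to 25.3, so its variant group, at 4.28 to 10.7, stood between.

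Markers of other cells were read beside these groups. Of 7 neutrophil and 5 lymphocyte markers 0 were called by edgeR (0 neutrophil markers and 1 higher and 1 lower lymphocyte marker at an unadjusted p under 0.05), and DESeq2 called 0 and 1. Among 14 macrophage and monocyte markers, Cd68 (log2 -1.53 ± 0.27) and Cd14 (log2 -1.15 ± 0.25) were lower and the receptor gene Csf1r was higher (log2 0.62 ± 0.14), with 2 higher and 3 lower in all, 1 higher without variant library 1 and 4 higher without mCherry library 2. Muscle markers summed to 1.20 to 1.60, 1.64 to 4.53 and 1.35 to 2.81 CPM in the variant, mCherry and NC groups. Liver markers summed to 378 to 1563, 747 to 1919 and 166 to 219 CPM. The liver markers named next were at 0.0800 to 19.5 CPM in the mCherry libraries, so other members made up most of the sums there. Of 8 tested liver markers, Apoa1 (log2 3.58 ± 0.51), Ttr (log2 2.64 ± 0.37) and Serpina1c (log2 2.56 ± 0.17) were called higher and Alb, serum albumin (log2 -1.35 ± 0.44, edgeR adjusted p = 0.0481), lower, with a median of -0.28. With library totals alone, without the filter on low counts, or without variant library 1, 2 or 5 or mCherry library 1, 3 or 4, 0 were called lower, and without variant library 3, 3 were. Of 8 urothelium markers 3 were called lower, the keratins Krt5, Krt14 and Krt20, and the uroplakins were not called. Krt20 is on the injury list as well. Upk3a, a plaque protein of urothelium named after its values were seen, was at 1.43 to 9.49, 2.58 to 28.3 and 0.392 to 17.5 CPM in the variant, mCherry and NC groups, highest in library 3 of both injured groups and in NC libraries 1 and 2. These markers summed to 59.7 to 246, 309 to 617 and 5.36 to 73.8 CPM in the variant, mCherry and NC groups, lowest in NC and highest in the mCherry group like the injury and keratin genes above, and their part in those results was not tested.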

How the data were processed

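Per the labels' protocols, TRIzol RNA was poly(A)-selected, made into strand-marked libraries with dUTP and sequenced as read pairs. Tools in the submitters' processing notes are StringTie, fastp and edgeR, with build GRCm39 and no versions. For each of 32047 genes the authors deposited a read count and, unused here, an FPKM value. Counts of 4 were more frequent (11995) than counts of 3 (5847) or 5 (3638), an excess whose cause was not tested.

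edgeR 4.0.16 in R 4.3.3 was run for each comparison on the 8 libraries it concerns: genes were filtered with filterByExpr, scaled by TMM, tested by quasi-likelihood, and p-values adjusted by Benjamini-Hochberg over all genes tested. CPM used TMM factors over 12 libraries, 1.12 to 1.15 in the variant, 0.903 to 1.02 in the mCherry and 0.879 to 0.911 in the NC group. Chi-square divided by its degrees of freedom was 31.6 to 136 for pairs of libraries within groups, so none was counted as a duplicate. In data simulated for the variant against the mCherry group (18824 genes), 83 genes were changed 1.5-fold, 58 genes 2-fold and 59 genes 4-fold. The test recovered 14.5%, 58.6% and 93.2% of them, with 3 false calls. Many more genes, 4347, were called in the data themselves. The adjusted threshold depends on the share of changed genes, so these rates need not hold there. The 50 gene lists (729 of 734 entries found), the naming rule and the groups compared were chosen with earlier results of these data known. Named genes are 20 chosen for their roles, the 12 largest rises and falls without overlap and a mean of at least 5 CPM, the 10 each farthest outside both other groups, the 6 each with the largest CPM difference, and up to 3 list members per direction with the smallest p. Provisional symbols (Gm with a number, or Rik endings) are not named, and only part of the rule's genes is printed. Promoter windows came from RefSeq (GRCm38.p6) and were matched by symbol or gene ID for 23 of 25 ER genes. Alternatives were DESeq2 1.42.0, RLE factors, library totals alone, no filter, a minimum mean of 5 CPM, a fit of all 12 libraries, a replicate block and leaving out each library. Tables and plots used Python 3.11.15, pandas 2.3.3, numpy 2.4.6 and matplotlib 3.10.9.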

Additional observations from a re-analysis of the deposited data

Results flagged for a closer look

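In 24 values, out of 389 groups of 4 libraries examined for the named genes, 1 library's gap to the nearest other of its group took a larger share of the group's range than Dixon's critical value for 4 allows. Chance flags about 1 in 20 groups. In the variant group, library 1 was high for Slc34a3 (12.9 CPM, the others at 4.48 to 4.68) and for Slc7a12 (54.2 CPM, the others at 21.3 to 23.8), and low for Ccl7 (0.228 CPM, the others at 0.505 to 0.528). Variant library 3 was high for Krt5 (12.8 CPM) and Upk3a (9.49 CPM) and low for mt-Nd5 (5122 CPM). Variant library 5 was high for Cyp4a12a at 13.9 CPM, where the others were at 1.88 to 3.62.

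In the mCherry group, library 3 was low for Ugt2b37 (18.6 CPM) and Pzp (6.90 CPM) and high for Upk3a (28.3 CPM). Library 2 was high for Ccl7 (8.44 CPM) and Ftl1 (8000 CPM), and library 1 was low for Aqp1 (79.5 CPM) and high for Alb (19.5 CPM). In NC, library 1 was high for Pdzk1 (1142 CPM), Bhlha15 (0.368 CPM), Vgf (0.147 CPM), Slc12a1 (1725 CPM), Nccrp1 (58.5 CPM) and Agt (82.2 CPM), and low for Etv5 (15.6 CPM) and Frs2 (23.3 CPM). NC library 2 was high for Chac1 (4.39 CPM), and NC library 3 was low for Tie1 (27.3 CPM).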

How the results depend on the processing

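Between the injured groups, 4347 genes were called. Scaled by library totals alone, 4060 were higher and 1035 lower, and 2033 genes lay outside all 8 other libraries (1952 higher and 81 lower). Without a filter on low counts 623 lay below all 8. Leaving out 1 library gave 2410 to 4259 calls, 1252 to 2088 of them higher and 1158 to 2171 lower. DESeq2 called 5620, the fit of all 12 libraries 5055 and RLE factors 4383. With the replicate number as a block, 1787 were called, 984 higher and 803 lower, and 4723 in place of 8035 for the variant group against NC. This replicate block is an alternative only: deviations of same-numbered variant and mCherry libraries correlated at 0.0763 to 0.138 over 3 pairs, and not every library correlated best with its own number. Calls lost under it included Cyp27b1 (adjusted p = 0.076, 5.46e-04 to 0.076 over the alternatives).

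Of 131 named genes with a test, 104 kept their direction and side of the threshold in all alternatives run. Those that reversed were not called: Sec61b was at log2 0.16 with library totals and at -0.19 to 0.12 when 1 library was left out, with 0.0070 without variant library 5 and 0.12 without mCherry library 2. mt-Nd4l was at log2 0.083 with library totals and at -0.23 to 0.059 when 1 library was left out, with 0.059 without variant library 3 and 0.036 without mCherry library 1. The causes were not tested. In lists with 0 calls in a direction, up to 1 member passed an unadjusted p under 0.05 in that direction in edgeR, and DESeq2 called up to 1.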

Other observations

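Complement genes, which tubules make as well as liver, had 8 called higher and 1 lower of 16, and 5 higher without variant library 1. C2, of the classical pathway, was higher (log2 1.04 ± 0.18). Cfi, the protease that cleaves C3b, was at 8.52 to 15.0, 2.501 to 6.77 and 3.48 to 5.19 CPM in the variant, mCherry and NC groups, and was the only listed complement gene above all 8 other libraries (log2 1.52 ± 0.29). In endothelium 5 of 12 markers were called higher and 0 lower, among them the angiopoietin receptor Tek (log2 1.35 ± 0.17), the VEGF receptor Flt1 (log2 1.03 ± 0.20) and Tie1 (log2 0.65 ± 0.13). Tek was at 32.7 to 39.0 CPM in the variant, 10.8 to 19.5 in the mCherry and 25.7 to 39.3 in the NC group, so the variant and NC libraries overlapped.

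Cholesterol synthesis and uptake had 6 called higher and 0 lower of 20 (3 higher without variant library 1, 11 without mCherry library 4), including Nsdhl (log2 1.10 ± 0.22), Pmvk (log2 0.70 ± 0.16) and Sqle (log2 0.82 ± 0.19), enzymes of the pathway. Pmvk and Sqle lay above all 8 other libraries, with Sqle at 103 to 138 CPM against 48.5 to 96.7 and, in NC, 72.1 to 92.3. Fatty acid oxidation split. Its regulators Ppara and Ppargc1a were higher (log2 1.85 ± 0.35 and log2 1.31 ± 0.15), while the enzymes Acads and Cpt2 were lower (log2 -0.48 ± 0.10 and log2 -0.67 ± 0.16) and lay below both other groups, with calls lost by library totals alone (edgeR adjusted p = 0.0721 and 0.0595). In all, 3 of 25 were called higher and 6 lower, and 7 and 1 when scaled by library totals alone. Without variant library 2, 2 were lower, and without mCherry library 1, 9 were higher and 3 lower. Among heme and iron genes, Ftl1, the ferritin light chain, was at 2814, 2925, 2725 and 2578 CPM in the variant libraries, 6021, 8000.5, 5934 and 5890.5 in the mCherry libraries and 2434, 2036, 2169 and 2613 in NC (log2 -1.22 ± 0.13). Trf, the iron carrier transferrin, was above all 8 other libraries (log2 1.76 ± 0.40). Cell cycle genes had 6 called lower and 0 higher of 24, with 1 lower without variant library 1 or 2, 2 without mCherry library 2 and 11 without variant library 5. Mcm3, of the replicative helicase, was lower (log2 -0.92 ± 0.20). Matrix and fibrosis genes had 6 called lower and 0 higher of 18, and heat shock genes 4 and 0 of 12, with 2 lower without variant library 1 or 5.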
